A study of Mus musculus with 12 samples.

Results

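The 41 genes described here are the tumour necrosis factor (TNF) ligands and their receptors other than Rank, its ligand and its decoy. They were taken by symbol from the 53735 gene symbols of the deposited table: every Tnfsf or Tnfrsf gene with a number, and Tnf, Lta, Ltb, Ltbr, Fas, Fasl, Cd40, Cd40lg, Cd27, Cd70, Ngfr and Edar, without Tnfrsf11a, Tnfrsf11b and Tnfsf11. They comprise 16 ligands, 24 receptors and 1 RNA, Tnfsf13os, from the strand opposite Tnfsf13. Of the 41, 33 had enough reads to be tested (11 ligands, 21 receptors and Tnfsf13os).

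TNF ligands are trimeric proteins of the cell surface, many of which are also released by cleavage, and each binds 1 or a few receptors of the matching family. Receptors with a death domain, such as Fas and Tnfrsf1a, can assemble complexes that activate caspases, while receptors without one recruit TRAF adaptors that lead to NF-kB and MAP kinases. In the mammary gland the family is best known through Rank, which drives the growth of the epithelium in response to progesterone, and Edar has a part in the development of the mammary bud.

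The RNA came from mouse mammary glands, from live epithelial cells that CD24 and CD49f separated by flow sorting into a basal (myoepithelial) and a luminal population. WT and MMTVRANK mice each gave 3 basal and 3 luminal libraries, 12 in all. In MMTVRANK mice the mouse mammary tumour virus promoter, which is active mainly in mammary epithelium, drives Rank, so both sorted populations come from a gland in which other cells can also carry the transgene. Strain, age and number of animals per library are not given in the sources used here, nor is it stated that replicates are separate animals, so p-values measure only the spread between these libraries.

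Total counts ran from 12459547 to 15069578 per library. For the WT libraries numbered 2, the title and the cell subtype field name opposite populations; groups follow the titles, and on the main axis of variation (63.7% of the variance) every library titled basal had a score of -118 or below and every one titled luminal 79.4 or above. Summed basal epithelial markers were 23000 to 30000 CPM (read counts scaled to library size) in basal and 36.9 to 391 CPM in luminal libraries, and luminal epithelial markers 302 to 653 and 7750 to 18500 CPM. The transgene's gene, Tnfrsf11a, was at 73.7, 158 and 65.3 CPM in WT basal, 415, 129 and 218 in MMTVRANK basal, 6.36, 90.8 and 9.91 in WT luminal and 319, 156 and 238 in MMTVRANK luminal replicates 1, 2 and 3. Both libraries labelled WT replicate 2 thus lay above the other WT libraries of their population, and the basal one lay above MMTVRANK basal replicate 2. The genotype directions below take these labels as they stand, and results are also given without that pair where it changes a call.

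Leukocyte markers separated 1 pair of libraries from the rest. The sum of 24 such markers was 917 CPM in MMTVRANK luminal replicate 3, with 22 of the 24 detected (Nkg7 and Klrb1c at 0), while the remaining 5 luminal libraries had 266 to 406 CPM, with 13 to 18 detected. In those 5 libraries Cd14 and Lcp1 made up most of the sum, and Ptprc (CD45), which all leukocytes carry, was at 0.384 to 1.72 CPM, against 48.7 CPM in MMTVRANK luminal replicate 3. MMTVRANK basal replicate 3 had a sum of 196 CPM with all 24 detected, while the remaining 5 basal libraries had 30.7 to 58.1 CPM. Fibroblast markers summed to 289 to 3020 CPM in basal (the highest in WT basal replicate 1) and 38.6 to 237 CPM in luminal libraries. Endothelial markers summed to 106 to 345 and 25.8 to 59 CPM, and adipocyte markers to 71.1 to 213 and 2.13 to 11.1 CPM.

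The sequences before the start sites of 5 members are shown because these genes carry the results below. Tnf and Tnfrsf1b were higher in luminal cells and Fas in basal cells of both genotypes. Tnfrsf21 was the member with the highest level per length in luminal cells. Edar was the basal receptor that reached 8.55 CPM in 1 luminal library and stayed at 0.477 CPM or less in the remaining ones. Each run holds the 250 bases before the RefSeq start site (GRCm38.p6), written 5′ to 3′ on the gene's strand, at chr17:35202008-35202257 (minus), chr4:145246871-145247120 (minus), chr17:43016305-43016554 (plus), chr10:58675697-58675946 (minus) and chr19:34290409-34290658 (plus). Capitals mark the letters of a searched motif.
Tnf: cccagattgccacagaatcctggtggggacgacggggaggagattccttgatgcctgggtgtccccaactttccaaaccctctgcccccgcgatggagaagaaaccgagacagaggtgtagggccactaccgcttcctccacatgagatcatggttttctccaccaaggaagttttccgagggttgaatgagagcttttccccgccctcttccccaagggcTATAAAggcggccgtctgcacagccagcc
Tnfrsf1b: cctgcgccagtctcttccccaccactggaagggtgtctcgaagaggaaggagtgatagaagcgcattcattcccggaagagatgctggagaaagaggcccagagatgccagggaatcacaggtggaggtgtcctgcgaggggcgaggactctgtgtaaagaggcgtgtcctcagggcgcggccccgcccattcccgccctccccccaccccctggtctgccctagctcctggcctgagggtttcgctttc
Tnfrsf21: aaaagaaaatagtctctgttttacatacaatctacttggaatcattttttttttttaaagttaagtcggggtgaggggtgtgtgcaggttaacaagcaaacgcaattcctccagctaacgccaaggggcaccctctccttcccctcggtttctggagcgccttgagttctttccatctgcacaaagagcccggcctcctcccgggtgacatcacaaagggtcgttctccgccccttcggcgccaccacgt
Edar: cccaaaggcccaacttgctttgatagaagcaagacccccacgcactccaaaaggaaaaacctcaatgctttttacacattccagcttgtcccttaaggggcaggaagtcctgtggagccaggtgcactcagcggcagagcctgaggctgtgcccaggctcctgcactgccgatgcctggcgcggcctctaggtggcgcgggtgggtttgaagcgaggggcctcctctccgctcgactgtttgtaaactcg
Fas: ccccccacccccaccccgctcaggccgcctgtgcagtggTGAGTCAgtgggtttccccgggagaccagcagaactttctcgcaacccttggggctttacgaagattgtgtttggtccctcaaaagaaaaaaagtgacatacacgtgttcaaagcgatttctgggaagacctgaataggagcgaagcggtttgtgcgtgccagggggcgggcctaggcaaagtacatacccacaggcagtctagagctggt

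The Tnf run holds the TATA letters TATAAA with their first base 29 bases before the start, and the Fas run holds the AP-1 letters TGANTCA 211 bases before it. Both motifs and the kappaB consensus were searched on both strands, and the other 3 runs hold none of the 3 motifs. RefSeq windows were found for 31 of the 41 members (35 windows). The kappaB consensus was in 4 of these 35 and in 7.25% of all 32851 windows of this length, the AP-1 letters in 6 and 6.75%, and the TATA letters in 5 and 12.4%. A looser kappaB pattern, GGGA and CC with any 4 bases between, was searched first and was in 7 of the 35 and in 17.6% of all windows, and in none of the 5 runs; the consensus was chosen after that count was seen. The median GC content was 56% in member windows and 52.4% in all windows. Matches describe these letters only.

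Per length of transcript, receptors dominated the family in every group. On the RPKM scale (reads per kilobase of exon, scaled to library size), Tnfrsf12a (the receptor of Tnfsf12), Tnfrsf1a (the main TNF receptor of epithelia), Tnfrsf21 (death receptor 6) and Ltbr (the lymphotoxin beta receptor) took the first 4 places in all 4 groups. In WT basal cells their mean levels were 103, 82.9, 67.7 and 25.6 RPKM, and in WT luminal cells 108, 55, 134 and 27.6 RPKM. In MMTVRANK luminal cells they were 77, 39.6, 89.1 and 21.4 RPKM. The only other members with a mean above 10 RPKM were Fas in basal cells, at 11.3 (WT) and 11.9 RPKM (MMTVRANK), Tnfsf9 in WT luminal cells, at 10.1 RPKM, and Tnf in MMTVRANK luminal cells, at 11.2 RPKM. The Tnfsf9 mean rests on 1 library, with 18.8, 5.19 and 6.3 RPKM in WT luminal replicates 1, 2 and 3. Between 13 (MMTVRANK luminal) and 18 (MMTVRANK basal) of the 33 tested members had a mean under 1 RPKM.

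**Figure D1:**
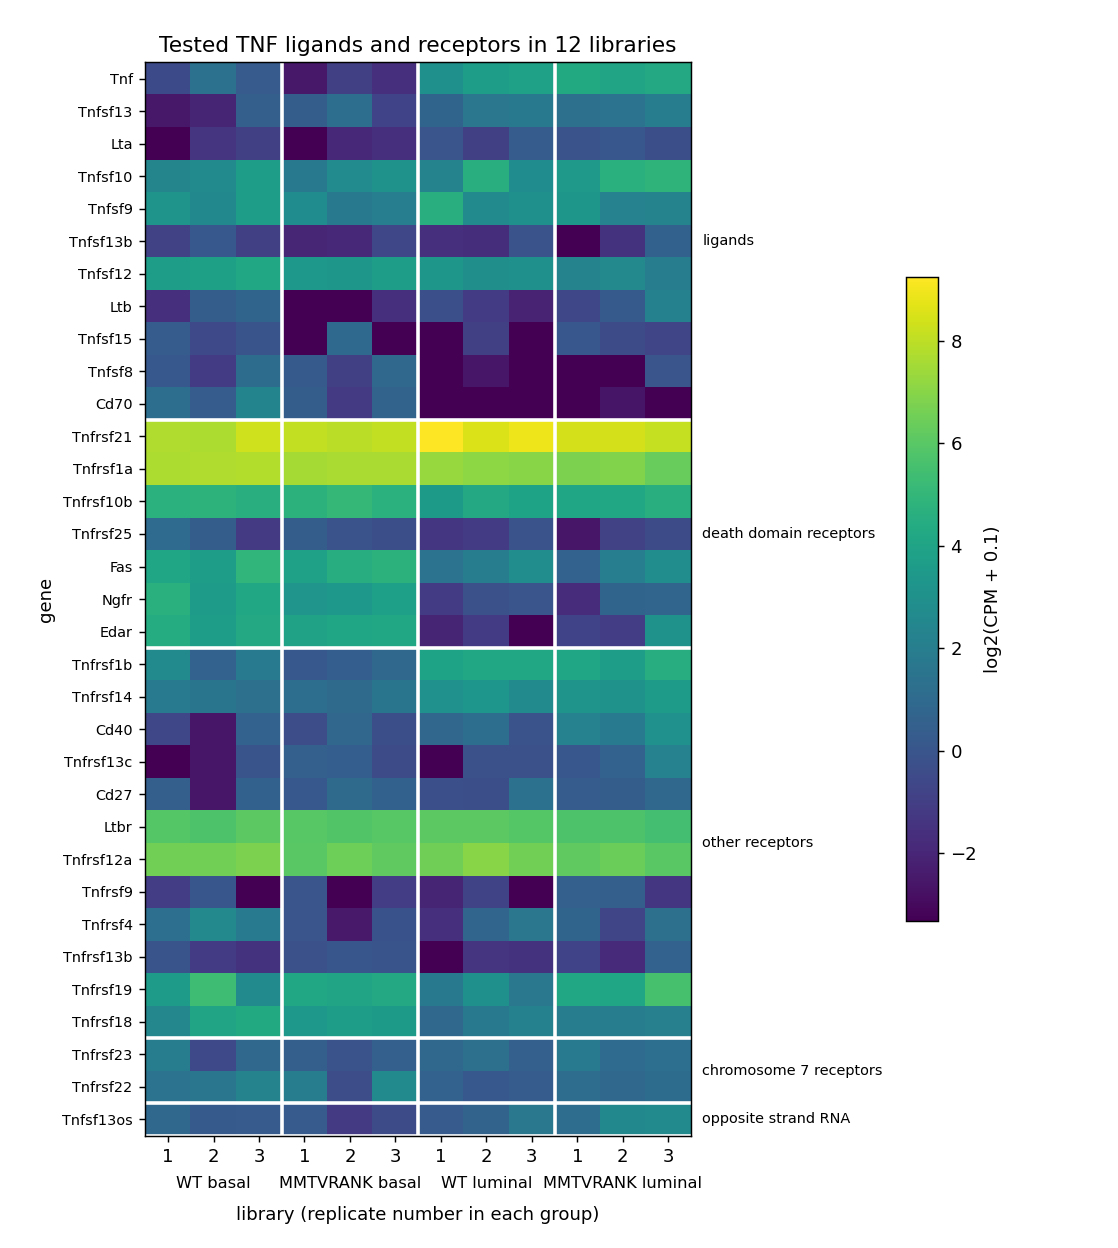
Heat map of the 33 tested members (rows) in the 12 libraries (columns, grouped by genotype and population), with colour giving log2(CPM + 0.1). Tnfrsf21, Tnfrsf1a, Tnfrsf12a and Ltbr are high in all 12 libraries, and Cd70 had no count in any WT luminal library.

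The 8 members too low to test were the ligands Tnfsf4, Tnfsf18, Fasl, Tnfsf14 and Cd40lg and the receptors Tnfrsf8, Tnfrsf17 and Tnfrsf26. They had between 5 and 48 counts over all 12 libraries, and the highest level of any of them in a library was 1.55 CPM, for Tnfsf18 in WT basal replicate 1. Fasl (ligand of Fas) had 5 counts, Cd40lg (ligand of Cd40) 7, Tnfsf14 (ligand of Tnfrsf14 and Ltbr) 5, Tnfsf4 (ligand of Tnfrsf4) 19 and Tnfsf18 (ligand of Tnfrsf18) 48.

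The study's sort allows luminal and basal cells to be compared within each genotype. In WT, the luminal level was the higher one for 4 members and the lower one for 10 (14 of 33), where 38.1% of all 18236 tested genes passed the same test (edgeR, adjusted p under 0.05), 18% up and 20% down. In MMTVRANK, 7 members were up and 6 down in luminal cells (13 of 33), where 33.2% of all genes passed, 16.1% up and 17% down. Both shares are near the background, so the family as a group did not stand apart. The median luminal minus basal log2 difference of the 33 was -0.59 in WT and 0.31 in MMTVRANK, against -0.07 and 0.05 over all genes. Luminal and basal libraries did not overlap for 16 members in WT (5 luminal above, 11 below), where 46.1% of all genes did not (22.3% above, 23.8% below), and for 21 in MMTVRANK (11 above, 10 below), where 54.5% did not (27.7% above, 26.8% below).

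The 9 members called in both genotypes had the same direction in both. They were 64.3% of the members called in WT and 69.2% of those called in MMTVRANK, against 71.2% and 81.7% for all genes. Luminal cells had more Tnf, Tnfrsf1b and Tnfrsf14. Basal cells had more Ngfr, Fas, Tnfrsf18, Tnfrsf1a, Tnfsf12 and Cd70. These are bulk libraries, so fewer cells of a type and less RNA per cell cannot be told apart.

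Among the ligands, Tnf itself, the inflammatory cytokine that gives the family its name (chr17:35199381-35202007, minus strand), was higher in luminal cells of both genotypes. It was at 0.619, 2.52 and 1.11 CPM in WT basal replicates 1, 2 and 3 and at 7.86, 12.8 and 14.6 CPM in WT luminal replicates. In MMTVRANK it was at 0.0756, 0.422 and 0.235 CPM in basal and 19.7, 16.3 and 18.9 CPM in luminal libraries. All 6 luminal libraries lay above all 6 basal libraries, MMTVRANK basal was the lowest group and MMTVRANK luminal the highest, with no overlap between any of the 4 groups. The log2 difference was 3.04 (SE 0.53, adjusted p = 0.000745) in WT and 6.20 (SE 0.65, adjusted p = 1.62e-05) in MMTVRANK. The summed leukocyte markers (mostly Cd14 and Lcp1 in luminal libraries) were also higher in every luminal than in every basal library (266 to 917 against 30.7 to 196 CPM). Taken singly, Cd14, Lcp1 and Trbc2 were higher in every luminal library, Trbc2 at 3.81 to 16.3 CPM in luminal and 0.59 to 2.04 CPM in basal libraries. The remaining markers, Ptprc and Coro1a among them, overlapped between the populations. Ptprc was at 0.384 to 48.7 CPM in luminal and 0.155 to 12.2 CPM in basal libraries. The part of leukocytes in the luminal levels of Tnf, Tnfrsf1b and Tnfrsf14 was not tested.

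Tnfsf13 (APRIL), a ligand of Tnfrsf13b and Tnfrsf17, was at 0.0773, 0.144 and 1.28 CPM in WT basal and 1.57, 3.05 and 3.24 CPM in WT luminal replicates. The groups did not overlap, and the log2 difference of 2.39 (SE 0.93, adjusted p = 0.0600) did not pass the test. It did with the replicate number as a block (adjusted p = 0.0468), with DESeq2 (adjusted p = 0.0211) and without WT basal replicate 3 (4.46, adjusted p = 0.00395). That library held the highest WT basal value, and its fit was the only 1 of 12 leaving out 1 library that called Tnfsf13 (adjusted p up to 0.158). In MMTVRANK the log2 difference of Tnfsf13 was 1.185 (SE 0.87, adjusted p = 0.333). Of its exon length, 60% is shared with the read-through gene Tnfsfm13.

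Tnfsf12 (TWEAK), the ligand of Tnfrsf12a, was higher in basal cells. Its WT basal replicates were at 12.8, 13.8 and 17.5 CPM and its WT luminal replicates at 9.88, 7.45 and 7.81 CPM, and MMTVRANK basal replicates at 10.3, 9.95 and 12.5 CPM and luminal replicates at 4.83, 5.95 and 3.92 CPM. Luminal libraries lay below basal libraries within each genotype, by a log2 difference of -0.81 (SE 0.28, adjusted p = 0.0360) in WT and -1.15 (SE 0.28, adjusted p = 0.00696) in MMTVRANK. The WT call is weak: with the replicate number as a block the adjusted p was 0.0512, and leaving out 1 library kept it in 3 of 12 fits. Of its summed exon length, 48.3% is shared with the read-through gene Tnfsfm13, so its reads may likewise be split.

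Cd70, the ligand of Cd27, was confined to basal libraries but for 1 read. It was at 2.24, 1.15 and 4.96 CPM in WT basal and 1.21, 0.337 and 1.49 CPM in MMTVRANK basal replicates, and only MMTVRANK luminal replicate 2 held a luminal count. Against a floor of 3 counts over the group, WT luminal was at least 38.5-fold lower than WT basal (103 counts against 0). In MMTVRANK the ratio was 48.8 (39 counts against 1, 95% exact counting interval 8.27 to 1980). These intervals and floors cover counting error only. Cd70 and Tnfsf13, and the members below that were called in 1 genotype, were chosen for the text after their values were seen.

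Among the receptors without a death domain, Tnfrsf1b and Tnfrsf14 were luminal and Tnfrsf18 basal. Tnfrsf1b is the second TNF receptor, best known from lymphocytes and endothelium (chr4:145213463-145246870, minus strand). It was at 6.19, 1.44 and 3.68 CPM in WT basal, 0.983, 1.26 and 1.72 CPM in MMTVRANK basal, 15.3, 17.9 and 18.1 CPM in WT luminal and 16.6, 12.8 and 22.6 CPM in MMTVRANK luminal replicates. All luminal libraries lay above all basal libraries, with a log2 difference of 2.18 (SE 0.45, adjusted p = 0.00234) in WT and 3.70 (SE 0.49, adjusted p = 0.000104) in MMTVRANK.

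Tnfrsf14 (HVEM), a receptor of Tnfsf14 and Lta, was at 3.48, 2.88 and 2.40 CPM in WT basal and 2.19, 1.94 and 2.82 CPM in MMTVRANK basal replicates. The luminal values were 8.08, 9.72 and 6.23 CPM in WT and 8.92, 8.37 and 11.7 CPM in MMTVRANK. Again no luminal library overlapped a basal one. The log2 difference was 1.45 (SE 0.36, adjusted p = 0.00684) in WT, which became 1.29 (adjusted p = 0.0603) without both libraries labelled WT replicate 2, and 2.05 (SE 0.37, adjusted p = 0.000922) in MMTVRANK.

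Tnfrsf18 (GITR), known as a costimulatory receptor of T cells, was at 5.57, 15.8 and 19.7 CPM in WT basal and 1.80, 3.33 and 4.57 CPM in WT luminal replicates. In MMTVRANK the basal values were 10.3, 12.6 and 11.5 CPM and the luminal values 3.88, 3.71 and 4.34 CPM. The log2 difference was -2.08 (SE 0.47, adjusted p = 0.00389) in WT and -1.53 (SE 0.46, adjusted p = 0.0212) in MMTVRANK, where the call was lost in 4 of 12 fits that left out 1 library (adjusted p up to 0.0709). An RNA on the opposite strand covers 27.2% of its exon length, and the counting used no strand.

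**Figure D2:**
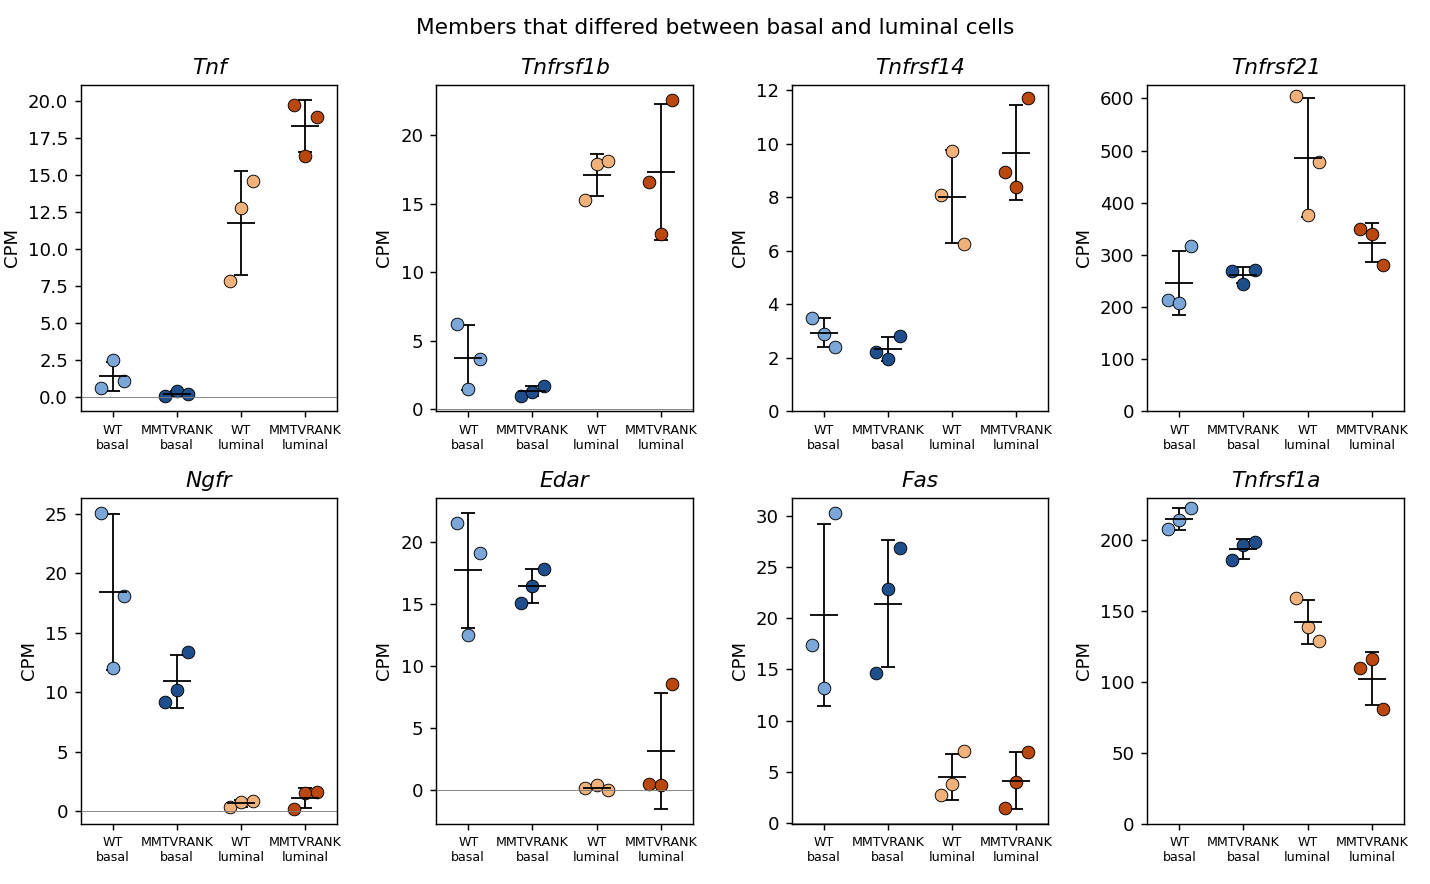
CPM of 8 members in each library (points) by group, with group mean and SD (bars, n = 3). Tnf, Tnfrsf1b and Tnfrsf14 lie higher in all luminal than in all basal libraries; Ngfr, Edar, Fas and Tnfrsf1a lie lower, and Edar is at 8.55 CPM in MMTVRANK luminal replicate 3.

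Of the 7 tested receptors with a death domain, 6 differed between the populations in WT, of which 5 were lower in luminal cells (Ngfr, Edar, Fas, Tnfrsf1a and Tnfrsf10b) and 1 higher (Tnfrsf21). In MMTVRANK 3 of the 7 were called, all lower in luminal cells (Ngfr, Fas and Tnfrsf1a). Over all genes the shares called were 38.1% in WT and 33.2% in MMTVRANK, and with 7 receptors nothing particular to them is read from these counts. The median luminal minus basal log2 difference of the 7 was -1.25 in WT and -1.22 in MMTVRANK. The seventh, Tnfrsf25, was not called in either genotype.

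Ngfr, the low affinity neurotrophin receptor and a known myoepithelial marker (chr11:95568818-95587735, minus strand), had the largest basal bias among the members called in both genotypes with an average log2 CPM of 2 or more. Its basal values were 25.1, 12 and 18.1 CPM in WT and 9.15, 10.2 and 13.4 CPM in MMTVRANK. Its luminal values were 0.374, 0.780 and 0.889 CPM in WT and 0.204, 1.53 and 1.64 CPM in MMTVRANK. Every luminal library lay below every basal library, by a log2 difference of -4.72 (SE 0.65, adjusted p = 0.000127) in WT and -3.26 (SE 0.60, adjusted p = 0.00123) in MMTVRANK.

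Fas, the receptor through which Fasl triggers apoptosis (chr19:34290659-34327770, plus strand), was at 17.4, 13.2 and 30.3 CPM in WT basal and 14.6, 22.8 and 26.8 CPM in MMTVRANK basal replicates. In luminal replicates it was at 2.69, 3.83 and 6.99 CPM (WT) and 1.43, 4.03 and 6.97 CPM (MMTVRANK). Luminal and basal libraries did not overlap, and the genotypes overlapped within each population. The log2 difference was -2.17 (SE 0.54, adjusted p = 0.00773) in WT and -2.36 (SE 0.55, adjusted p = 0.00535) in MMTVRANK.

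Tnfrsf1a (chr6:125349362-125362484, plus strand) was abundant in both populations. It was at 208, 214 and 223 CPM in WT basal, 186, 197 and 199 CPM in MMTVRANK basal, 159, 139 and 129 CPM in WT luminal and 110, 116 and 81.1 CPM in MMTVRANK luminal replicates. The 4 groups did not overlap and ran in that order from high to low. The luminal minus basal log2 difference was -0.59 (SE 0.15, adjusted p = 0.00842) in WT and -0.92 (SE 0.15, adjusted p = 0.000574) in MMTVRANK; without both libraries labelled WT replicate 2 the WT value was -0.57 (adjusted p = 0.0617).

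Tnfrsf21 (chr17:43016555-43089188, plus strand) was the death-domain receptor with the opposite bias. It was at 214, 207 and 317 CPM in WT basal, 269, 243 and 270 CPM in MMTVRANK basal, 605, 376 and 478 CPM in WT luminal and 349, 340 and 280 CPM in MMTVRANK luminal replicates. Luminal lay above basal within each genotype. The log2 difference was 0.99 (SE 0.21, adjusted p = 0.00258) in WT and 0.31 (SE 0.21, adjusted p = 0.280) in MMTVRANK. The difference between these differences did not pass the test (-0.68, SE 0.29, adjusted p = 0.624).

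Edar, the ectodysplasin receptor (chr10:58600789-58675654, minus strand), was the most sharply divided member in WT among those with an average log2 CPM of 2 or more. It was at 21.5, 12.5 and 19.1 CPM in WT basal and 15.1, 16.4 and 17.8 CPM in MMTVRANK basal replicates, and at 0.150, 0.355 and 0 CPM in WT luminal replicates. In MMTVRANK luminal replicates it was at 0.477, 0.384 and 8.55 CPM. The log2 difference was -6.68 (SE 1.29, adjusted p = 0.00192) in WT. In MMTVRANK it was -2.38 (SE 0.97, adjusted p = 0.0834), and DESeq2 called it (-2.46, adjusted p = 0.0212). It was -5.23 (adjusted p = 9.05e-05) without MMTVRANK luminal replicate 3. In that library Edar stood at 50.1% of its mean over the basal libraries, while the basal epithelial markers stood at 1.51% of theirs.

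Tnfrsf10b, the mouse receptor of Tnfsf10 (TRAIL), was at 25.5, 28.2 and 24.0 CPM in WT basal and 11.3, 18.8 and 15.4 CPM in WT luminal replicates, a log2 difference of -0.77 (SE 0.22, adjusted p = 0.0157). In MMTVRANK it was -0.54 (SE 0.22, adjusted p = 0.0785), and DESeq2 called it (-0.61, adjusted p = 0.0282). The WT groups did not overlap. Without WT luminal replicate 1 the WT call was lost (adjusted p = 0.0639).

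Along with the basal-biased receptors, the summed fibroblast, endothelial and adipocyte markers were also higher in every basal than in every luminal library (values above). Their part in the basal levels of Fas, Ngfr, Edar and Tnfrsf18 was not tested.

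**Figure D3:**
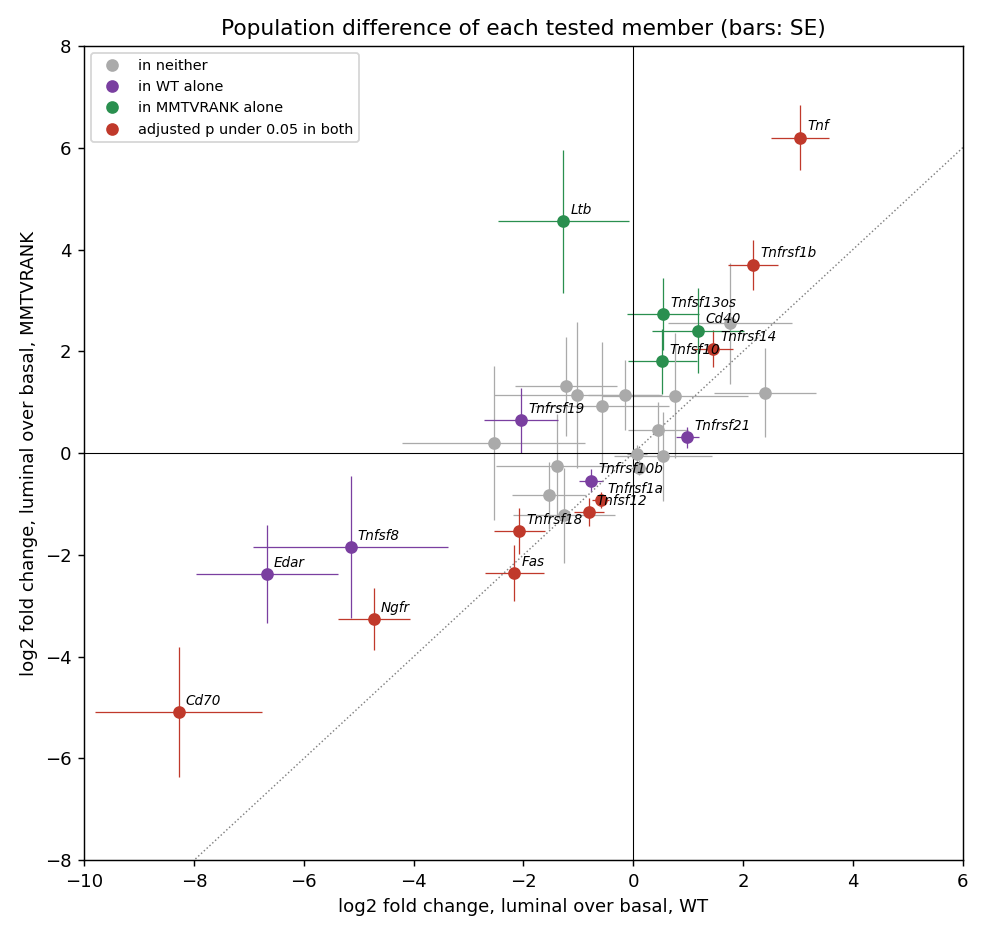
Luminal minus basal log2 fold change of each tested member in WT (x axis) and in MMTVRANK (y axis), 1 point per member, coloured by whether it was called in both, 1 or neither genotype. The 9 members called in both lie to the upper right and lower left of the origin, with Tnf highest on the y axis at 6.20.

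A further 9 members were called by edgeR in 1 genotype alone, and for none of them did the difference between the genotypes pass the test. In WT these were Tnfrsf21, Edar and Tnfrsf10b (above), Tnfrsf19 and Tnfsf8, and in MMTVRANK Cd40, Ltb, Tnfsf10 and Tnfsf13os. Tnfsf8 (the CD30 ligand) had 42 counts in WT basal and 1 in WT luminal libraries, a ratio of 47.1 (95% exact counting interval 8.01 to 1900), and its call was lost in 7 of 12 fits that left out 1 library (adjusted p up to 0.107). Tnfrsf19 (TROY) differed by -2.04 (SE 0.67, adjusted p = 0.0329) in WT with overlapping groups, and by -0.94 (adjusted p = 0.198) without WT basal replicate 2.

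All 4 called in MMTVRANK were highest in MMTVRANK luminal replicate 3, the library with most leukocyte markers. Tnfsf10 and Tnfsf13os lay only slightly higher there than in replicate 2 (values below). Ltb (lymphotoxin beta, made mainly by lymphocytes) had 102 counts in luminal and 3 in basal libraries, a ratio of 27.1 (95% exact counting interval 9.03 to 134), and was at 0.545, 1.09 and 4.51 CPM in the luminal replicates, with 77 of the 102 counts in replicate 3. Its log2 difference was 4.55 (SE 1.40, adjusted p = 0.0248), and 3.24 (adjusted p = 0.130) without MMTVRANK luminal replicate 3. The call was also lost without MMTVRANK basal replicate 1 (4.00, adjusted p = 0.0864) or 2 (4.04, adjusted p = 0.0859), and without basal replicate 3 the value was 7.86 (adjusted p = 0.0185). Cd40, the B cell and myeloid receptor of Cd40lg, was at 4.70, 3.64 and 8.03 CPM in MMTVRANK luminal and 0.681, 1.69 and 0.705 CPM in MMTVRANK basal replicates (log2 difference 2.41, SE 0.84, adjusted p = 0.0427). With the replicate number as a block the adjusted p of Cd40 was 0.0605, and leaving out 1 library kept the call in 5 of 12 fits. Ptprc was at 48.7 CPM in MMTVRANK luminal replicate 3, and the part of leukocytes in the 4 genes was not tested.

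Tnfsf10 (TRAIL), an apoptosis-inducing ligand, was at 11.0, 24.7 and 28.9 CPM in MMTVRANK luminal and 3.25, 6.66 and 8.54 CPM in MMTVRANK basal replicates (log2 difference 1.81, SE 0.64, adjusted p = 0.0466). Its call was kept in 5 of 12 fits that left out 1 library. Tnfsf13os was at 2.18, 5.82 and 6.15 CPM in MMTVRANK luminal and 1.13, 0.337 and 0.627 CPM in MMTVRANK basal replicates (log2 difference 2.73, SE 0.70, adjusted p = 0.00924). It shares 19.9% of its exon length with Tnfsf13 on the other strand, so the reads of both cannot be told apart there.

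The comparison of MMTVRANK with WT asks how transcript levels differ with the Rank transgene, first in luminal cells. No member was called (0 of 33, where 0.252% of all genes were called, 0.0932% up and 0.159% down), and 8 had an unadjusted p under 0.05. The same edgeR test did not call the transgene's gene, Tnfrsf11a, either (log2 difference 2.74, SE 0.89, adjusted p = 0.224). A member that is not called is thus not shown to be unchanged. DESeq2 called 3 members, and over all genes it also called many more than edgeR did (counts at the end). By sign, 24 of the 33 had a higher mean in MMTVRANK, with a median log2 difference of 0.39 against 0.03 over all genes. Shares of all genes by unadjusted p or by sign are not given, here or for the comparisons below. Nothing particular to the family is therefore read from the DESeq2, unadjusted p and sign counts. Libraries of the genotypes did not overlap for 12 members (7 above and 5 below in MMTVRANK), where 16.9% of all genes did not (10.1% above, 6.82% below).

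The smallest p values belonged to Tnfrsf19, Edar, Tnfrsf1a and Tnfrsf21. Tnfrsf19, a receptor of the ectodysplasin receptor's subfamily known in skin and neural progenitors (chr14:60963875-61046490, minus strand), was at 3.29, 7.87 and 3.18 CPM in WT luminal and 18.5, 16.4 and 48.7 CPM in MMTVRANK luminal replicates. It was at 12.2, 40.5 and 6.25 CPM in WT basal and 18.5, 15.9 and 19.3 CPM in MMTVRANK basal replicates. The luminal genotypes did not overlap, and the highest library of all 12 was MMTVRANK luminal replicate 3. The luminal log2 difference was 2.54 (SE 0.68, adjusted p = 0.147). Without both libraries labelled WT replicate 2 it was 3.11 (adjusted p = 0.0411), and without MMTVRANK luminal replicate 3 it was 1.83 (adjusted p = 0.493).

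Edar differed by 4.19 (SE 1.24, adjusted p = 0.185) in luminal cells, and by 1.30 (adjusted p = 0.879) without MMTVRANK luminal replicate 3, so this value rests on 1 library. DESeq2 called both, Tnfrsf19 at 2.49 (adjusted p = 0.00466) and Edar at 4.18 (adjusted p = 0.00464). In MMTVRANK luminal replicate 3 the basal epithelial markers, the leukocyte markers, Edar and Tnfrsf19 were all at their highest among luminal libraries. What share of Edar and Tnfrsf19 came with other cells in that library was not tested.

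The abundant receptors had lower values in MMTVRANK luminal cells without passing the test. Tnfrsf1a differed by -0.47 (SE 0.15, adjusted p = 0.205; DESeq2 -0.54, adjusted p = 0.0489) and Tnfrsf21 by -0.59 (SE 0.21, adjusted p = 0.247). Both had all 3 MMTVRANK libraries below all 3 WT libraries, as had Tnfrsf12a, Ltbr and the ligand Tnfsf12. Their log2 differences were -0.49 (Tnfrsf12a), -0.37 (Ltbr) and -0.77 (Tnfsf12). The summed luminal epithelial markers were also lower in MMTVRANK luminal libraries (7750 to 11800 against 12600 to 18500 CPM, exact permutation p = 0.1, the smallest that 3 against 3 allows, 0.4 after adjustment). Their part in these differences was not tested.

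**Figure D4:**
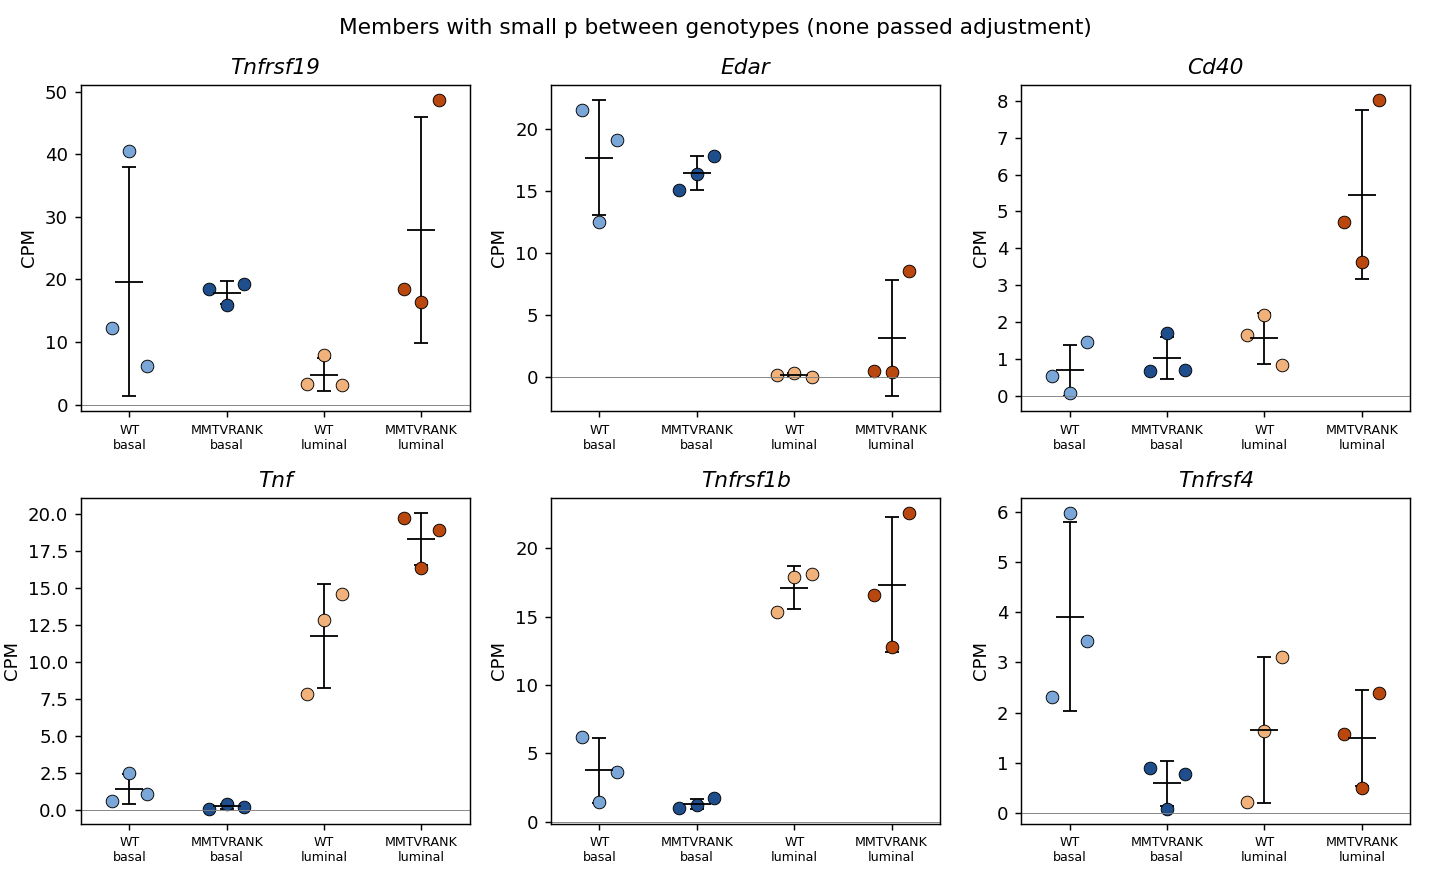
CPM of Tnfrsf19, Edar, Cd40, Tnf, Tnfrsf1b and Tnfrsf4 in each library (points) by group, with group mean and SD (bars, n = 3). Tnfrsf19 is higher in the 3 MMTVRANK luminal than in the 3 WT luminal libraries, and Tnf is lower in the 3 MMTVRANK basal than in the 3 WT basal libraries.

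In basal cells, MMTVRANK against WT gave no called member (0 of 33, where 0.00548% of all genes were called, all of them down), and 5 had an unadjusted p under 0.05. DESeq2 called 1 member, and 66 of the 18236 genes tested. Tnfrsf11a was not called by edgeR in basal cells either (log2 difference 1.36, SE 0.85, adjusted p = 0.977). Here 23 of 33 had a lower mean in MMTVRANK, with a median log2 difference of -0.33 against 0.00407 over all genes. The 5 members without overlap were all lower in MMTVRANK, where 11.1% of all genes did not overlap (6.6% above, 4.52% below). They were Tnf and Tnfrsf4 (below), and Tnfrsf12a, Tnfsf12 and Tnfrsf1a, which also lay lower without overlap in luminal cells. The basal log2 differences were -0.41 (Tnfrsf12a), -0.43 (Tnfsf12) and -0.15 (Tnfrsf1a). Of the 11 ligands, 10 had a lower mean, and with 11 ligands nothing particular to them is read from this count.

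Tnf had the smallest p, with a log2 difference of -2.52 (SE 0.63, adjusted p = 0.652; all 3 MMTVRANK basal libraries lower) and -1.80 (adjusted p = 0.602) without both libraries labelled WT replicate 2. DESeq2 called it, at -2.60 (adjusted p = 0.0419). The summed luminal epithelial markers were also lower in MMTVRANK basal than in WT basal libraries (302 to 400 against 558 to 653 CPM, exact permutation p = 0.1, the smallest that 3 against 3 allows, 0.4 after adjustment), and their part in the Tnf difference was not tested. Its receptor Tnfrsf1b differed by -1.50 (SE 0.47, adjusted p = 0.711), with overlapping groups. Tnfrsf4 (OX40), a T cell costimulatory receptor, was at 2.32, 5.98 and 3.42 CPM in WT basal and 0.908, 0.0843 and 0.783 CPM in MMTVRANK basal replicates, with 0.225, 1.63 and 3.11 CPM in WT luminal and 1.57, 0.511 and 2.40 CPM in MMTVRANK luminal replicates. Its basal genotypes did not overlap (log2 difference -2.70, SE 1.00, adjusted p = 0.835). Ltb had 38 counts in WT basal and 3 in MMTVRANK basal libraries, a ratio of 12.5 (95% exact counting interval 3.95 to 63.1, adjusted p = 0.860). MMTVRANK basal replicate 3, which had the most leukocyte markers of the basal libraries, held all 3 of those counts.

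**Figure D5:**
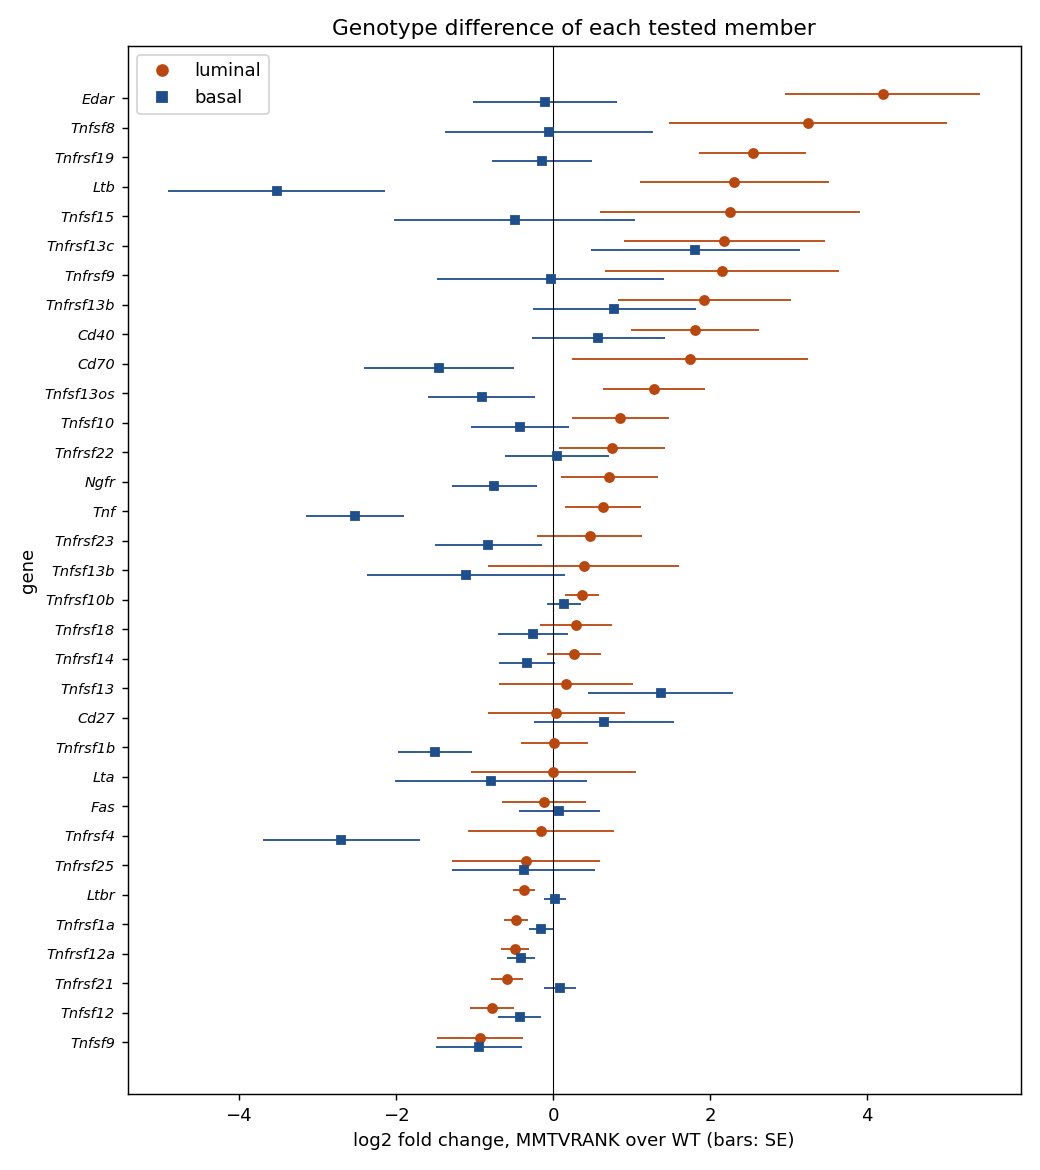
Log2 fold change of MMTVRANK over WT (x axis, bars give the SE) for each of the 33 tested members in luminal cells (circles) and basal cells (squares). Edar, Tnfrsf19 and Ltb lie to the right in luminal cells, and Tnf, Tnfrsf4 and Ltb to the left in basal cells, with no member past the test in either.

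Whether the genotype difference itself differed between the populations was tested as an interaction. No member passed (0 of 33, where 0.00548% of all genes did), and 7 had an unadjusted p under 0.05. DESeq2 called 1 member, and 140 of the 18236 genes tested. The difference of differences, luminal minus basal, was 3.16 (SE 0.79, adjusted p = 0.397) for Tnf, 5.83 (SE 1.83, adjusted p = 0.490) for Ltb, 2.68 (SE 0.92, adjusted p = 0.552) for Tnfrsf19 and 4.30 (SE 1.54, adjusted p = 0.567) for Edar. DESeq2 called Tnf, at 3.18 (adjusted p = 0.0210). For Tnf the MMTVRANK values lay below WT in basal cells and above WT in luminal cells, in all 3 libraries each. The summed luminal epithelial markers lay below WT in both populations, but in luminal cells not every marker did. There Krt8, Krt18, Krt19, Epcam and Elf3 lay below WT without overlap, and Cldn3, Cldn4, Cldn7 and Prom1 overlapped. Ehf lay above, at 118, 172 and 194 CPM in WT and 276, 289 and 559 CPM in MMTVRANK luminal replicates. The part of luminal content in the Tnf values was not tested.

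The 4 lists of genes that act with the family gave no called gene in either genotype comparison or in the interaction. They were receptor adaptors and death signalling (25 tested), signal complexes and feedback (21), ligand shedding and related receptors (13) and NF-kB targets responsive to TNF (23). In luminal cells the leading values were those of Furin, a protease that processes TNF ligands (-0.85, SE 0.17, adjusted p = 0.0720), Traf5, an adaptor of receptors without a death domain (1.65, adjusted p = 0.155), and the adhesion molecule Vcam1 (3.88, adjusted p = 0.179). Furin was at 216, 167 and 168 CPM in WT luminal and 110, 104 and 93.3 CPM in MMTVRANK luminal replicates, without overlap. Vcam1 was highest in MMTVRANK luminal replicate 3, at 91.5 CPM against 5.65 and 30.5 CPM in the other MMTVRANK luminal libraries.

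Other genes among the 4 smallest p of their list in luminal cells were Birc2 (0.87), Mlkl (0.92), Ikbkb (0.42), Rffl (-0.43), Map3k5 (0.41), Chuk (0.25), Adam17 (0.47), Relt (2.01), Adam10 (-0.61), Ccl20 (6.04), Ccl2 (3.28) and Ier3 (-0.71), given as log2 differences. Of these, Ccl20, Ccl2, Relt and Birc2 were highest among luminal libraries in MMTVRANK luminal replicate 3, at 65, 6.74, 25.2 and 245 CPM. In the remaining luminal libraries they were at 6.27, 0.639, 6.52 and 120 CPM or less. Ikbkb and Adam17 were also highest there, at 84.7 and 77.6 CPM against 72.3 and 73.4 CPM or less in the remaining luminal libraries. In basal cells the leading values were those of Rhbdf2, which brings the TNF sheddase Adam17 to the cell surface (-0.90, SE 0.25, adjusted p = 0.652), and Nfkbia, the feedback inhibitor of NF-kB (-0.79, SE 0.24, adjusted p = 0.688). Other basal ones were Xiap (0.39), Diablo (0.65), Traf4 (-0.47), Ikbkg (0.61), Tax1bp1 (0.37), Tnfaip3 (-0.97), Tab2 (0.25), Rhbdf1 (-0.63), Adam17 (0.41), Sppl2a (0.35), Zc3h12a (-0.94), Irf1 (0.35) and Tnip3 (3.96).

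Between the populations, genes of all 4 lists were called, where 38.1% of all genes were in WT and 33.2% in MMTVRANK. In WT, 9 of 25 adaptor and death signalling genes were higher and 4 lower in luminal cells, and in MMTVRANK 14 and 3. Signal complexes and feedback gave 3 higher and 2 lower of 21 in both genotypes, and ligand shedding 4 and 3 of 13 in WT and 4 and 4 in MMTVRANK. The TNF responsive targets gave 3 higher and 8 lower of 23 in WT and 6 and 6 in MMTVRANK. The medians of these 4 lists in WT were 0.39, 0.18, -0.03 and -0.21, against -0.07 over all genes. Among them Nfkbia was higher in luminal cells by 1.28 (adjusted p = 0.00126) in WT and 2.03 (adjusted p = 5.34e-05) in MMTVRANK, Rhbdf2 by 1.45 (adjusted p = 0.000651) and 2.04 (adjusted p = 6.69e-05), and Traf5 was lower by a log2 difference of -4.23 (adjusted p = 3.58e-05) and -3.10 (adjusted p = 0.000210).

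Many members are neighbours in the genome, with 9 on chromosome 4 and 8 on chromosome 17. Ltb, Tnf and Lta lie side by side on chromosome 17, with 3060 and 1157 bases between them. Of these, Tnf was luminal in both genotypes, Lta stayed at 1.14 CPM or less in every library and was not called, and Ltb was called in MMTVRANK alone. On chromosome 4, Tnfrsf4 and Tnfrsf18 lie 9551 bases apart, and Tnfrsf1b lies 20266 bases from Tnfrsf8, which had too few reads to test while Tnfrsf1b reached 22.6 CPM. On chromosome 6, Ltbr and Tnfrsf1a are 35476 bases apart. Ltbr was at 52.5 to 67.1 CPM in basal and 44.7 to 67.6 CPM in luminal libraries and was not called, while Tnfrsf1a was lower in luminal cells of both genotypes.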

How the data were processed

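The 12 sorted samples were sequenced from a stranded total RNA kit (labels' protocols). The submitters' processing notes name STAR 2.6.1b, Subread 1.5 and the build GRCm38.p6. The deposited table gives raw counts by gene symbol. Per the file headers the authors counted with featureCounts 1.5.2 over GENCODE M17 exons, by largest overlap and with no strand option. The deposited exon length column gave RPKM.

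Members, lists, the naming rule and tests were chosen with earlier results of these data known. Genes kept by filterByExpr (minimum count 10, about 0.728 CPM; 18236 genes) were normalised by TMM and fitted over all 12 libraries and 4 groups with the quasi-likelihood test of edgeR 4.0.16 in R 4.3.3 (common biological coefficient of variation 0.450). Adjusted p is Benjamini-Hochberg over these genes, with a threshold of 0.05, and SE is the log2 difference over the square root of F. The fit was tested on simulated data with a smaller coefficient of variation than that of these libraries. Its power at their spread was not tested. DESeq2 1.42.0, other size factors, no filter, a replicate block and left-out libraries were alternatives.

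Named members are the 4 with the smallest p in each genotype comparison and those called between populations in both genotypes with an average log2 CPM of 2 or more, and from each pathway list the 4 with the smallest p per genotype comparison, of which 2 are not reported here. All 66 pairs of libraries differed beyond counting noise (chi-square per degree of freedom 27.4 or more). Same-numbered libraries deviated together (correlation over 9330 genes of 0.115 to 0.56 between luminal genotypes, 0.168 to 0.38 between populations in WT and 0.114 to 0.258 in MMTVRANK), so numbers were read as pairing these. Between basal genotypes 1 of 3 was -0.0467, and those were not. The main fit held group means without a block, so its SE and p-values leave this pairing out. The replicate block was fitted over all libraries, and so it also paired the basal genotypes.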

Additional observations from a re-analysis of the deposited data

How the results depend on the processing

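No member's called difference, and none of the 4 smallest p in each genotype comparison and the interaction, changed direction under the alternatives run. Some uncalled ones did when 1 library was left out, such as Tnfsf13b between luminal genotypes (0.39, down to -1.68). Named pathway genes were not refitted under alternatives. The count of all genes called between genotypes was 46 in luminal and 1 in basal cells, and 1 in the interaction. Without the low-count filter these counts were 1353, 349 and 776, with DESeq2 800, 66 and 140, and without both libraries labelled WT replicate 2 81, 4 and 3. With the replicate block, which pairs same-numbered libraries, they were 103 in luminal cells and 0 in the interaction, and the block ended the calls of Tnfsf12 in WT and Cd40 in MMTVRANK and added that of Tnfsf13 in WT. Leaving out 1 library gave 3 to 93 genes in luminal cells, 0 to 8 in basal cells, 0 to 7 in the interaction, 5776 to 6898 between populations in WT and 4612 to 6415 in MMTVRANK. The cause of these shifts was not tested.

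Of members, 0 were called between genotypes in luminal cells, in basal cells and in the interaction. Without the filter these were 2 (Tnfrsf19 and Edar), 1 (Tnf) and 3 (Tnf, Tnfrsf19 and Edar), with DESeq2 3, 1 and 1, and without the WT replicate 2 pair 1 (Tnfrsf19) in luminal cells. Leaving out 1 library called 0 members in all 3, 11 to 14 between populations in WT and 9 to 13 in MMTVRANK. Without the WT replicate 2 pair 9 of 14 calls in WT were left, losing Tnfsf8 (adjusted p = 0.0652), Tnfrsf14, Tnfrsf1a, Tnfsf12 (0.139) and Tnfrsf19 (0.0599). Without the filter Tnfrsf1a (0.0685), Tnfsf12 (0.252) and Tnfrsf10b (0.0910) lost their calls in WT and Tnfsf12 (0.0581) in MMTVRANK. With DESeq2's size factors in edgeR, Cd40 (0.0506) and Tnfsf10 (0.0550) lost theirs in MMTVRANK. Between populations, calls were gained by Tnfsf13 in WT (0.0459 without the filter, 0.0211 with DESeq2), Tnfrsf22 in WT (0.0415 with DESeq2), Edar in MMTVRANK (4.77e-06 without the filter, 0.0212 with DESeq2) and Tnfrsf10b in MMTVRANK (0.0481 with DESeq2's size factors, 0.0282 with DESeq2). Depth limits the 8 untested members and Cd70, Tnfsf8 and Ltb, each with a group of 3 counts or fewer.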
